A study of Rattus norvegicus with 9 samples.

Results

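The serum of rats given rotenone for more than 40 days was compared with the serum of control rats, in 6 of the 9 small RNA libraries of the series. Rotenone blocks complex I of the mitochondrial respiratory chain, and long exposure is used in rats as a model of Parkinson's disease. The late group, LPD, holds 3 libraries from adult male wildtype Wistar rats that received 2 mg/kg rotenone per day by intraperitoneal injection until a terminal stage. The Control group holds 3 libraries from adult male wildtype Wistar rats. The labels word the treatment alike for all samples, and what the Control animals were given is not stated. In every group blood was left to clot at room temperature and serum was spun off, so material released by platelets and blood cells during clotting is part of what was measured. The remaining 3 libraries, from rats treated for 10 days, were not part of the main fit. Fold changes are given for the 124 of 567 microRNAs (miRNAs) with a count above 0 in all 6 libraries. A further 279 miRNAs had 0 counts in all 3 LPD libraries and some count in Control, and these are described apart. The other miRNAs were 119 with a mixture of zeros and counts, 1 that was 0 in all Control libraries and 44 that were 0 in all 6.

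A miRNA is a short RNA cut from a hairpin precursor. Loaded into an Argonaute protein, it pairs with messenger RNAs mainly through its seed, bases 2 to 8, so miRNAs with the same seed share many targets. Cells also release miRNAs into blood, in vesicles or bound to protein, and serum therefore carries a mixture from blood cells, vessel wall and solid organs. Some miRNAs come mostly from one tissue, such as miR-122 from hepatocytes, miR-451 and miR-486 from red cells and miR-124 from neurons.

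The mature sequences below are those of the miRNAs on which the comparison turned, from RefSeq on the GRCr8 assembly, 5′ to 3′, with the seed in capitals. Of the 124 miRNAs, 109 had an entry. The first set was higher in LPD, and its 3 let-7 members share a seed.
let-7a-5p: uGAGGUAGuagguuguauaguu
let-7d-5p: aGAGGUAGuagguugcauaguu
let-7e-5p: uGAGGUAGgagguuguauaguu
miR-10b-5p: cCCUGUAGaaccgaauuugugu
miR-126a-5p: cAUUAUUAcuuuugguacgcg
miR-92a-3p: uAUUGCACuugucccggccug
miR-6216: gAUACACAgaggcaggaggagaa

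The second set was lower in LPD. It holds both arms of the miR-140 hairpin, a pair with the miR-148/152 seed, and miRNAs of the miR-29, miR-19 and miR-125 families.
miR-140-3p: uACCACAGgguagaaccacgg
miR-140-5p: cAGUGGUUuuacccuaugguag
miR-125b-5p: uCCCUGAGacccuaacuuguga
miR-191a-5p: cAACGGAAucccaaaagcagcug
miR-339-5p: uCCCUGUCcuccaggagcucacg
miR-29a-3p: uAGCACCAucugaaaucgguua
miR-148a-3p: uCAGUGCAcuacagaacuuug
miR-152-3p: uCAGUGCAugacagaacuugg
miR-199a-3p: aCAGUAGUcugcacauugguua
miR-19b-3p: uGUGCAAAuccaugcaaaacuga
miR-183-5p: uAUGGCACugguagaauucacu
miR-182: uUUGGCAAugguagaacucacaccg
miR-205: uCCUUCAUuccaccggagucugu

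On GRCr8, miR-140-3p lies at chr19:52375353-52375373 on the plus strand, inside the gene Wwp2. miR-126a-5p lies at chr3:29813182-29813202 on the plus strand, inside Egfl7, and miR-191a-5p at chr8:118142641-118142663 on the plus strand, inside Dalrd3. miR-125b-5p lies at chr11:29732588-29732609 on the plus strand, inside the non-coding gene LOC103693508.

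The LPD libraries were shallow. Control libraries held 1108167, 1171056 and 1539557 counts, and LPD libraries 305019, 209895 and 132609. Control libraries detected 424 to 481 miRNAs and LPD libraries 153 to 197. In LPD 1 and LPD 2 low counts were nearly missing, with 3 and 9 miRNAs at 1 to 9 counts against 150 to 157 in the Control libraries, and LPD 3 had 39. The 124 miRNAs held at least 98.0% of the counts of every library. Control 2 stood apart through miR-122-5p, which stood at 687066 CPM there and at 20204 and 43342 CPM in Control 1 and Control 3. CPM values here are counts scaled to a common library size, with totals adjusted by TMM. Across the 124 miRNAs, the median SD of log2 CPM was 0.47 in Control and 0.63 in LPD. Blood cell miRNAs such as miR-16-5p, miR-223-3p and miR-150-5p were counted in every library. The LPD libraries counted every miRNA with a Control mean of at least 1000 CPM. The depth, the number of miRNAs detected and the group moved together, and their part in the results below cannot be told apart.

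Of the 124 miRNAs, 8 were higher in LPD (6.45%) and 16 were lower (12.9%) at an adjusted p under 0.05 in edgeR's quasi-likelihood test with Benjamini-Hochberg adjustment over all 247 miRNAs tested. Over all 247, 52 passed (21.1%), 8 higher (3.24%) and 44 lower (17.8%). The extra lower calls were 27 miRNAs at 0 in all LPD libraries and miR-503-3p, chosen here after its values were seen, with 330, 41 and 392 counts in Control and 0, 1 and 0 in LPD. At an unadjusted p under 0.05 there were 43 of the 124. The values of the Control and LPD libraries did not overlap for 56 of the 124 (45.2%), among them all 24 called. The median log2 fold change of the 124 was -0.14 with TMM scaling and 0.07 with RLE size factors, so log2 changes near 0 have no fixed sign. With RLE the same test gave 10 higher and 12 lower, and with DESeq2 14 higher and 17 lower.

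**Figure D1:**
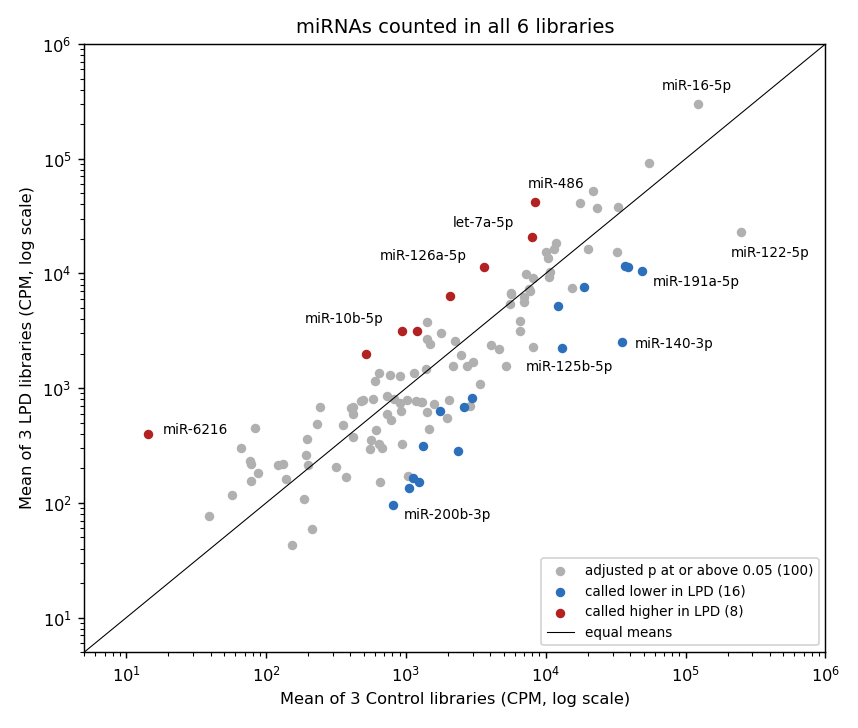
Mean CPM of the 3 LPD libraries against that of the 3 Control libraries for 124 miRNAs, both on log scales, with calls in colour and a line at equal means. miR-486 and miR-6216 lie above the line and miR-140-3p, miR-191a-5p and miR-125b-5p below it, while miR-122-5p, far below the line, was not called.

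Every one of the 24 calls rested on 3 libraries a side. With LPD 2 left out none of the 24 passed, at adjusted p from 0.0562 to 0.134, although all 24 kept their sign and an unadjusted p under 0.05. With Control 3 left out 6 passed, with LPD 1 left out 11, with Control 1 left out 13, with Control 2 left out 17 and with LPD 3 left out 22. The 6 that passed without Control 3 were miR-486, miR-126a-5p, miR-140-3p, miR-125b-5p, miR-191a-5p and miR-339-5p. The sign of all 24 held in every alternative tried. miR-486, miR-140-3p, miR-125b-5p and miR-191a-5p passed under each of the 10 other tools, scalings, filters and models, and missed the threshold only without LPD 2.

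The 8 miRNAs that rose in LPD included a red cell miRNA, an endothelial miRNA and 3 of the let-7 family. miR-486, a red cell miRNA made late in erythroid differentiation, stood at 8588, 7334 and 9036 CPM in Control and at 47617, 59385 and 18467 CPM in LPD. All LPD libraries exceeded all Control libraries, and the log2 fold change was 2.33 (SE 0.46, n = 3 a side, edgeR adjusted p = 0.031). By abundance it moved from ranks 26, 32 and 23 to ranks 5, 3 and 6.

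miR-126a-5p is the 5p arm of the endothelial and platelet hairpin within Egfl7. It stood at 3581, 2537 and 4742 CPM in Control and at 13369, 12659 and 8167 CPM in LPD. The groups were apart, with a log2 fold change of 1.65 (SE 0.36, edgeR adjusted p = 0.032). For the 3p arm of the same hairpin the log2 fold change was 0.63 (SE 0.35, edgeR adjusted p = 0.31).

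miR-92a-3p, a member of the miR-17/92 cluster, was even across Control at 2135, 1968 and 2051 CPM and stood at 6538, 9335 and 3386 CPM in LPD. Its log2 fold change was 1.65 (SE 0.41, edgeR adjusted p = 0.033). miR-10b-5p, encoded beside Hoxd4 in the Hox gene cluster, stood at 861, 1035 and 912 CPM in Control and 4188, 3349 and 1966 CPM in LPD, a log2 fold change of 1.76 (SE 0.40, edgeR adjusted p = 0.032). LPD 3 was the lowest LPD library for both, as it was for miR-486 and miR-126a-5p. It was still above each Control library.

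Of the 9 let-7 and miR-98 miRNAs, a family of differentiation-associated miRNAs that repress growth genes, 3 rose and none fell, beside 6.45% of the 124 called higher, and the median log2 fold change was 0.67. let-7a-5p stood at 8991, 6794 and 8014 CPM in Control and at 24326, 25239 and 12305 CPM in LPD, a log2 fold change of 1.38 (SE 0.36, edgeR adjusted p = 0.034). let-7e-5p went from 663, 386 and 494 CPM to 2877, 2295 and 835 CPM, a log2 fold change of 1.96 (SE 0.55). let-7d-5p went from 1411, 1051 and 1149 CPM to 3050, 4254 and 2069 CPM, a log2 fold change of 1.38 (SE 0.39). Both had an edgeR adjusted p of 0.041. For each of these 3 the LPD libraries all exceeded the Control libraries, with LPD 3 again lowest. let-7b-5p had a log2 fold change of 1.23 (edgeR adjusted p = 0.147), and let-7g-5p and let-7i-5p of -0.30 and -0.29.

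By position from the 5′ end of let-7a-5p, let-7e-5p differs by U9G and let-7d-5p by U1A and U16C. let-7c-5p differs by A19G, let-7f-5p by G12A and let-7b-5p by A17G and A19G. How the authors assigned reads between sequences this close is not given in the sources used here, so the split among these members is uncertain. Left-out libraries bore on the family: 0 of the 3 passed without LPD 1, LPD 2, Control 2 or Control 3, and without Control 2 the family's median was 0.42. With library totals in place of TMM, and with limma voom, none of the 9 passed.

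miR-6216, singled out after its values were seen, had the largest positive value among the 24. Its counts were 15, 15 and 22 in Control and 47, 158 and 34 in LPD, or 11.1, 19.9 and 12 CPM against 157, 817 and 218 CPM. The log2 fold change was 4.78 (SE 1.16, edgeR adjusted p = 0.033). It was the least abundant in Control of the 124 miRNAs. In LPD 1, LPD 2 and LPD 3, 1 count stood for 3.34, 5.17 and 6.43 CPM. A miRNA this low in Control was therefore likelier to be counted in all 3 shallow LPD libraries if it was high there. From the number of undetected miRNAs, these libraries were estimated to hold 36.7, 49.1 and 12.3 counts per molecule, so its LPD counts may stand for few molecules. The estimate takes undetected miRNAs as missed in sampling, and would be too high if some were truly absent. Of the 18 miRNAs among the 124 with a Control mean below 226 CPM, 15 had positive log2 fold changes (median 0.92), against a median of -0.30 in the other 106.

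Among the miRNAs that fell, the largest change was that of miR-140-3p, from a hairpin known from cartilage. miR-140-3p stood at 45231, 15985 and 43849 CPM in Control and at 3718, 2460 and 1343 CPM in LPD. No library overlapped, and the log2 fold change was -3.80 (SE 0.57, edgeR adjusted p = 0.023). It was among the 4 most abundant miRNAs in Control 1 and Control 3 and stood at rank 36 to 58 in LPD. The other arm, miR-140-5p, fell from 1370, 559 and 1448 CPM to 217, 222 and 51.4 CPM, a log2 fold change of -2.77 (SE 0.71, edgeR adjusted p = 0.033). The third and the fourth cartilage miRNAs listed, both arms of miR-455, were partly 0 in LPD and were not called. miR-455-3p was counted 319, 81 and 368 times in Control and 23, 0 and 0 times in LPD (edgeR adjusted p = 0.40). miR-455-5p was counted 384, 49 and 405 times in Control and 20, 0 and 0 times in LPD (edgeR adjusted p = 0.36).

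miR-125b-5p, made in many mesenchymal and neural cells, had the smallest adjusted p of the comparison. It stood at 13733, 14458 and 11173 CPM in Control and at 2233, 2026 and 2493 CPM in LPD, tight within both groups. The log2 fold change was -2.54 (SE 0.29, edgeR adjusted p = 0.0057).

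miR-191a-5p, abundant in platelets and often used as a reference in serum, stood at 35382, 68705 and 42255 CPM in Control and at 12735, 12193 and 6271 CPM in LPD. The LPD libraries were all below the lowest Control library, and the log2 fold change was -2.23 (SE 0.42, edgeR adjusted p = 0.031). miR-199a-3p, of fibroblasts and platelets, fell from 51204, 27139 and 32700 CPM to 10392, 10415 and 13898 CPM, a log2 fold change of -1.68 (SE 0.34, edgeR adjusted p = 0.031).

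miR-339-5p fell from 1380, 4096 and 1622 CPM to 314, 388 and 141 CPM, a log2 fold change of -3.07 (SE 0.63, edgeR adjusted p = 0.031). Both miR-148a-3p, abundant in liver, and its seed relative miR-152-3p fell. The log2 fold change of miR-148a-3p was -1.31 (SE 0.30, edgeR adjusted p = 0.032). It stood at 22500, 18855 and 15045 CPM in Control and 7259, 8942 and 6554 CPM in LPD. For miR-152-3p it was -1.87 (SE 0.36), with 3396, 2544 and 3002 CPM against 964, 631 and 855 CPM. In neither did the groups overlap.

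miR-29a-3p, a repressor of collagen messages, stood at 18601, 62954 and 34480 CPM in Control and at 8837, 10472 and 14746 CPM in LPD, a log2 fold change of -1.77 (SE 0.48, edgeR adjusted p = 0.039). miR-19b-3p fell from 1367, 1943 and 1916 CPM to 617, 620 and 655 CPM, a log2 fold change of -1.46 (SE 0.38). miR-30d-5p, at 10305, 17183 and 9159 CPM against 5757, 6027 and 3958 CPM, fell by 1.22 on the log2 scale (SE 0.35, edgeR adjusted p = 0.048), and miR-30b-5p fell by 2.95 (SE 0.81), with 86, 16 and 5 counts in LPD. miR-30d-5p missed the threshold without any 1 of the 6 libraries, and miR-19b-3p passed only when LPD 3 was the one left out.

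**Figure D2:**
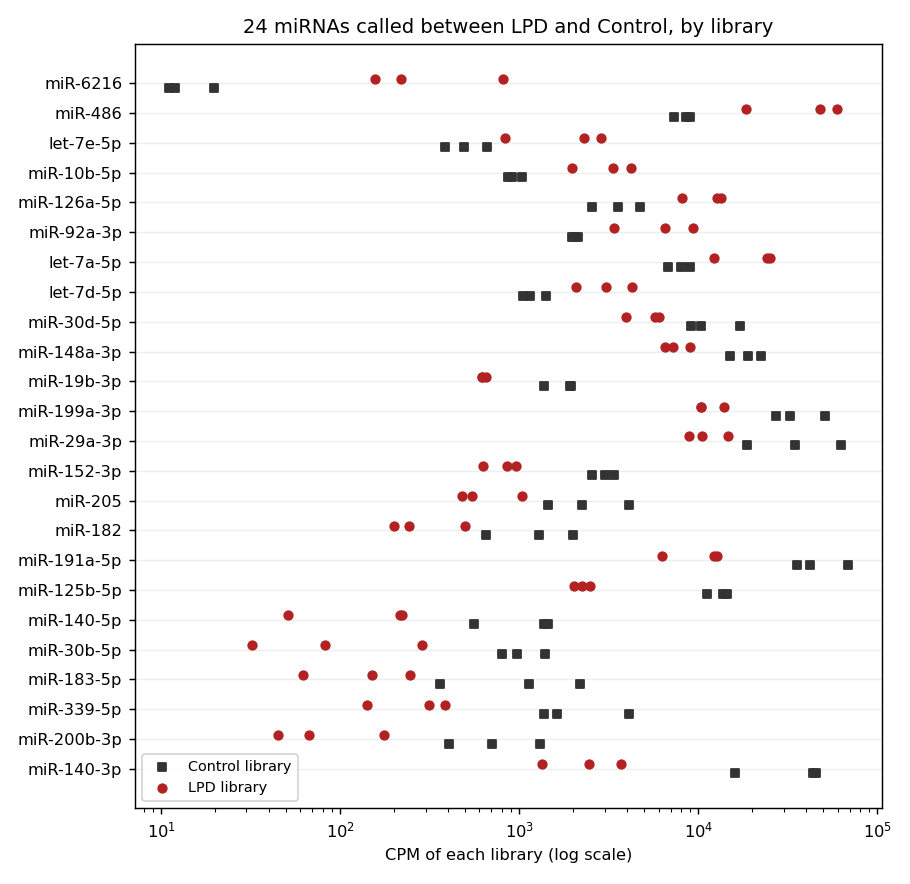
CPM on a log scale of each of the 6 libraries for the 24 called miRNAs, ordered by log2 fold change, with Control libraries as squares and LPD libraries as circles. In every row the squares and circles do not overlap, from miR-6216 at the top to miR-140-3p, the largest decrease, at the bottom.

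Seed families were formed among the 109 miRNAs with a sequence entry. No family had calls in both directions, but only 2 could have had them. These were the seeds GAGGUAG, with 3 higher, and CAGUGCA, with 2 lower, and every other family had at most 1 call. Of 16 families with at least 2 members, which hold 47 miRNAs, 3 were positive throughout and 6 negative throughout. Whether unrelated miRNAs would share a sign as often was not tested. miRNAs without an entry are left out of these families, among them miR-30b-5p, miR-30d-5p and miR-200b-3p, all called lower. The 3 miR-29 miRNAs lay close together, at -1.77 for miR-29a-3p, -1.71 for miR-29c-3p and -1.66 for miR-29b-3p, although miR-29a-3p alone passed the test. The number that passed was 3 without Control 1, 2 without LPD 3 and 0 without Control 3, LPD 1 or LPD 2 or with limma voom. The miR-125 seed, CCCUGAG, was split in size, with miR-125b-5p at -2.54, miR-351-5p at -2.09 (edgeR adjusted p = 0.095) and miR-125a-5p at -0.06.

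Some pairs with the same seed stood far apart. miR-92a-3p had a log2 fold change of 1.65 and miR-25-3p, which shares its seed AUUGCAC, of -0.20. miR-19b-3p fell and miR-19a-3p, which differs from it by C11U, stood at 0.44 (SE 0.86). Within the miR-15/16 seed AGCAGCA the log2 fold changes ran from -1.16 for miR-497-5p to 1.29 for miR-16-5p, and none of the 5 members passed. The differences between members of a family were not tested. Across miRNAs the log2 fold change had a Pearson r of -0.17 with GC content (n = 109) and -0.34 with log2 Control CPM (n = 124). The latter pair of measures shares the Control values.

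Of 6 red cell miRNAs 1 rose, miR-486, and none fell, beside 6.45% of the 124 called higher. The median of the 6 was 1.12, against -0.14 for all 124, and 5 of the 6 were positive. Without LPD 3, and with DESeq2, 3 of the 6 passed, and without LPD 2 none did. Their summed share of counts was 17.7%, 5.74% and 19.2% in Control and 37.0%, 38.6% and 27.1% in LPD, most of it miR-16-5p. miR-16-5p, the most abundant miRNA of all LPD libraries, stood at 134685, 79801 and 150370 CPM in Control and at 326325, 356279 and 209586 CPM in LPD. The groups did not overlap, but the adjusted p was 0.0526 (log2 fold change 1.29, SE 0.39, edgeR), and it passed with RLE factors and with DESeq2. miR-451-5p, the most red-cell-restricted of them, had 0.96 (edgeR adjusted p = 0.186).

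Red cell lysis in serum is commonly judged by setting miR-451-5p against miR-23a-3p. On the log2 scale this index was -3.75, -4.58 and -2.81 in Control and -3.05, -3.37 and -2.58 in LPD, so the groups overlapped (difference 0.71, two-sided exact permutation p = 0.3, where 3 against 3 cannot go below 0.1). With miR-486 in place of miR-451-5p the difference was 1.93, the groups were apart and the exact p was 0.1. Because miR-486 was itself called higher, that index is not a separate reading of lysis. With miR-451-5p kept and miR-24-3p in place of miR-23a-3p the difference was 1.03, with an exact p of 0.1. The part of red cell content in the values of the other miRNAs was not tested, and in serum a change in the number of cells releasing RNA cannot be told apart from a change in RNA per cell.

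**Figure D3:**
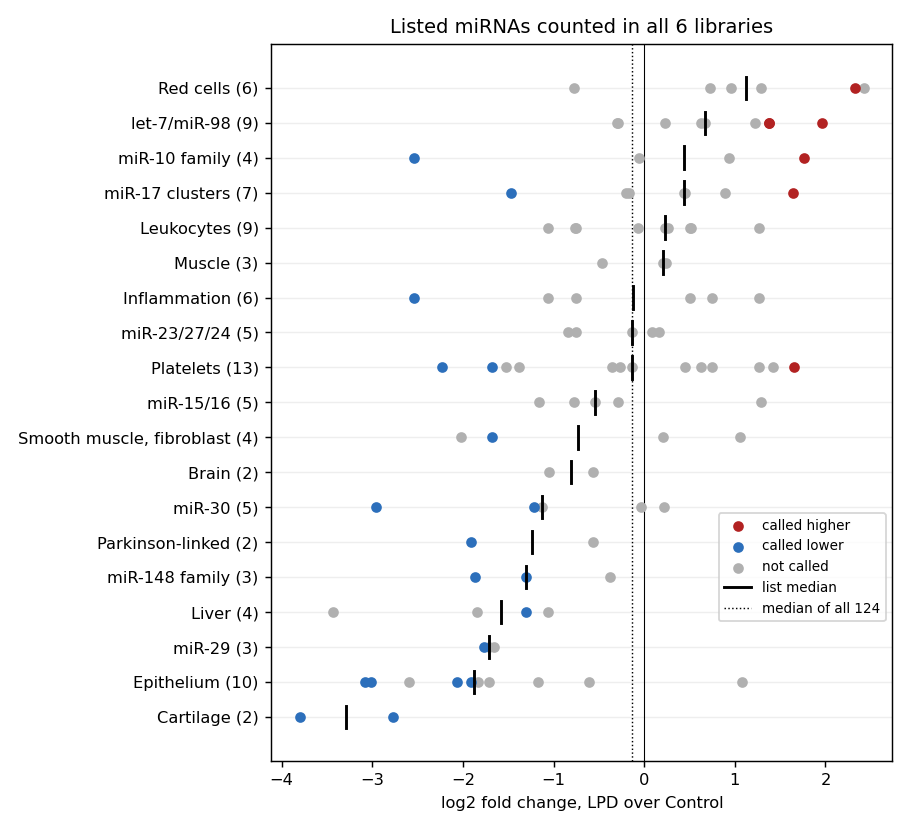
Log2 fold changes of listed miRNAs counted in all 6 libraries, 1 row per list with the number of members, a bar at the list median and a dotted line at the median of all 124. Red cell and let-7 members lie mostly to the right and epithelial, cartilage and miR-29 members to the left.

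Platelet miRNAs went both ways: of 13, miR-126a-5p rose, miR-191a-5p and miR-199a-3p fell, and the median was -0.13. Calls in the lists of this paragraph are to be read beside 6.45% of the 124 called higher and 12.9% called lower. The number that rose was 3 without Control 2, 4 without LPD 3 and 0 without LPD 1 or LPD 2. miR-223-3p, the most abundant miRNA of platelets and neutrophils, did not pass (log2 fold change 1.26, SE 0.47, edgeR adjusted p = 0.111), at 12413, 36358 and 16257 CPM in Control and 61911, 58863 and 35083 CPM in LPD, where Control 2 overlapped LPD 3. Of 9 leukocyte miRNAs none passed (median 0.22). miR-150-5p, of lymphocytes, had 0.52 and miR-155-5p, induced in activated immune cells, had 0.51. Of the 6 inflammation miRNAs, miR-125b-5p alone passed. miR-146a-5p, a brake on innate immune signalling, stood at 23777, 46580 and 26987 CPM in Control and at 14684, 14369 and 17445 CPM in LPD (log2 fold change -1.07, edgeR adjusted p = 0.067). miR-21-5p had 0.75 (edgeR adjusted p = 0.30), with LPD 3 at 148261 CPM and the other 5 libraries at 51712 to 64704 CPM.

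The 4 hepatocyte miRNAs were all negative, with a median of -1.58. However, miR-148a-3p was the 1 that passed, beside 12.9% of the 124 called lower. miR-122-5p, with a log2 fold change of -3.43 (SE 1.27, edgeR adjusted p = 0.107), stood at 14671, 18794 and 36079 CPM in LPD, with Control 1 inside that range and Control 3 above it. Without Control 2 the median of the list was -0.68. Without Control 1 miR-148a-3p was lost and the other 3 passed, and without Control 3 or LPD 2, or with limma voom, none of the 4 did. miR-192-5p and miR-194-5p, also highest in Control 2, had -1.06 and -1.84 and did not pass. miR-802-5p of the same list was 0 in all LPD libraries.

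Of the 9 muscle miRNAs listed, 3 were counted in all 6 libraries, 4 were 0 in all LPD libraries and 2 were partly 0. The 3 counted throughout overlapped between the groups. miR-1-3p ranged from 331 to 1914 CPM in Control and from 184 to 3348 CPM in LPD, and miR-206-3p from 873 to 3747 and from 326 to 6637 CPM. LPD 3 was the highest library for both. Of the partly 0 members, miR-133a-3p was counted 1711, 193 and 1140 times in Control and 28, 0 and 71 times in LPD. The other, miR-499-5p, was counted 20, 10 and 37 times in Control and 0, 0 and 16 times in LPD. No muscle miRNA passed, and the median of 3 was 0.20, or -1.78 without LPD 3.

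Brain miRNAs were sparse in serum. Of the 16 listed, 10 were 0 in all LPD libraries, beside 279 of all 567 miRNAs. miR-124-3p was 0 in all 6 libraries, and miR-128-3p and miR-7a-5p were counted throughout. miR-128-3p had a log2 fold change of -1.05 (edgeR adjusted p = 0.118). miR-7a-5p, which represses alpha-synuclein, had -0.57 (SE 0.47, edgeR adjusted p = 0.486), at 615, 579 and 1146 CPM in Control and 531, 455 and 591 CPM in LPD. miR-9a-5p, of neural progenitors and neurons, was counted 53, 17 and 45 times in Control and 0, 0 and 18 times in LPD. Of 8 miRNAs linked to Parkinson's disease, all of them in other lists too, 2 were counted in all 6 libraries: miR-7a-5p and miR-205, which fell. None of 4 stress miRNAs was counted in all 6 libraries. miR-34a-5p, a p53 target, was counted 376, 539 and 716 times in Control and 0, 0 and 12 times in LPD (edgeR adjusted p = 0.147), and miR-210-3p, induced by hypoxia, 331, 273 and 602 against 31, 0 and 0 times (edgeR adjusted p = 0.321). The other members were scarce and stood in LPD 3 alone of the LPD libraries: miR-34c-5p was counted 18, 14 and 31 against 0, 0 and 15 times, and miR-34b-5p 0, 2 and 4 against 0, 0 and 14 times.

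Of 10 epithelial miRNAs counted in all 6 libraries 4 fell and none rose, beside 12.9% of the 124 called lower. Of the 10, 9 were negative, against 67 of the 124, and the median was -1.87. miR-183-5p fell from 2188, 363 and 1138 CPM to 150, 62.0 and 244 CPM, a log2 fold change of -3.02 (SE 0.81, edgeR adjusted p = 0.039), and miR-182, from the same cluster, had -2.07 (SE 0.61). miR-205, of stratified epithelia, fell from 4081, 1445 and 2257 CPM to 1038, 543 and 482 CPM, a log2 fold change of -1.91 (SE 0.53). miR-200b-3p, which restrains epithelial-mesenchymal transition, had -3.08 with 20, 34 and 7 counts in LPD. miR-203a-3p, of skin, had -1.83 (edgeR adjusted p = 0.062).

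The Control group was itself uneven here. The summed share of the epithelial list was 4.06%, 0.50% and 2.15% in Control and 0.55%, 0.55% and 0.78% in LPD, so Control 2 stood below the LPD libraries. On the TMM scale Control 2 was the lowest Control library for each of the 4 that fell, but above the LPD libraries. The number of epithelial calls was 7 without Control 2, 1 without LPD 1 and 0 without Control 1, Control 3 or LPD 2. It was 1 with library totals and 0 with limma voom, with a median between -2.30 and -1.25 in all alternatives. The exception in direction was miR-375-3p, of endocrine and gut epithelium, with a log2 fold change of 1.07 (edgeR adjusted p = 0.334).

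Other families had few calls among members counted in all 6 libraries, to be read beside the 6.45% of the 124 called higher and the 12.9% called lower. Of 7 miRNAs of the miR-17 clusters 1 rose and 1 fell, and of 5 of the miR-30 family 2 fell. Of 4 of the miR-10 and miR-125 group 1 rose and 1 fell. A further 5 of the miR-17 clusters and 3 of the miR-10 and miR-125 group were partly 0 in LPD, and none was called. Those 3 all had a lower mean CPM in LPD. Among them miR-99a-5p was counted 1407, 623 and 1167 times in Control and 0, 0 and 21 times in LPD (edgeR adjusted p = 0.118). None of the 5 miRNAs of the miR-23/27/24 clusters passed, and miR-23a-3p and miR-24-3p had log2 fold changes of 0.17 and -0.13. Of 4 smooth muscle and fibroblast miRNAs miR-199a-3p alone passed. miR-143-3p, abundant in smooth muscle, had 0.21, at 23508 to 50623 CPM in Control and 30585 to 42684 CPM in LPD.

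miRNAs cut from neighbouring hairpins are often transcribed together. Among the 124 there were 43 pairs of miRNAs on the same strand within 10000 bases on GRCr8, in 22 groups. The groups of libraries did not overlap in the ratio of 17 pairs (39.5%), which is no more than the 45.2% of single miRNAs, and 19 pairs differed by more than 1 on the log2 scale. Some ratios stayed close, with differences of -0.01 for let-7a-5p over let-7d-5p and 0.04 for miR-93-5p over miR-25-3p, and others did not. A ratio within a library does not depend on scaling. The log2 ratio of miR-92a-3p to miR-19b-3p was 0.64, 0.02 and 0.10 in Control and 3.40, 3.91 and 2.36 in LPD, though each has 2 loci. For miR-16-5p over miR-15b-5p it was 6.88, 6.01 and 6.62 in Control and 8.74, 8.37 and 8.87 in LPD. For miR-425-5p over miR-191a-5p it was -5.41, -6.09 and -6.06 against -3.90, -4.11 and -2.87. These pairs were singled out after their values were seen and carry no test.

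The ratio of the 5p to the 3p arm of a hairpin compares products of 1 precursor. Of 10 hairpins with both arms counted in all 6 libraries, 0 passed an adjusted p of 0.05 in limma (0.0%), 1 had an unadjusted p under 0.05, and in 5 the groups did not overlap (50.0%). miR-126a had the smallest p, with log2 ratios of -1.34, -1.89 and -1.30 in Control and -0.58, -0.42 and -0.22 in LPD, a difference of 1.1 (SE 0.35, limma adjusted p = 0.127). In LPD the 2 arms were closer to equal. For miR-140 the ratio was -5.05, -4.84 and -4.92 in Control and -4.09, -3.45 and -4.62 in LPD, so the 3p arm dominated in all 6 libraries (difference 0.88, SE 0.40, limma adjusted p = 0.127). miR-144, a red cell hairpin, went the other way, with a difference of -1.75 (SE 0.74, limma adjusted p = 0.127).

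**Figure D4:**
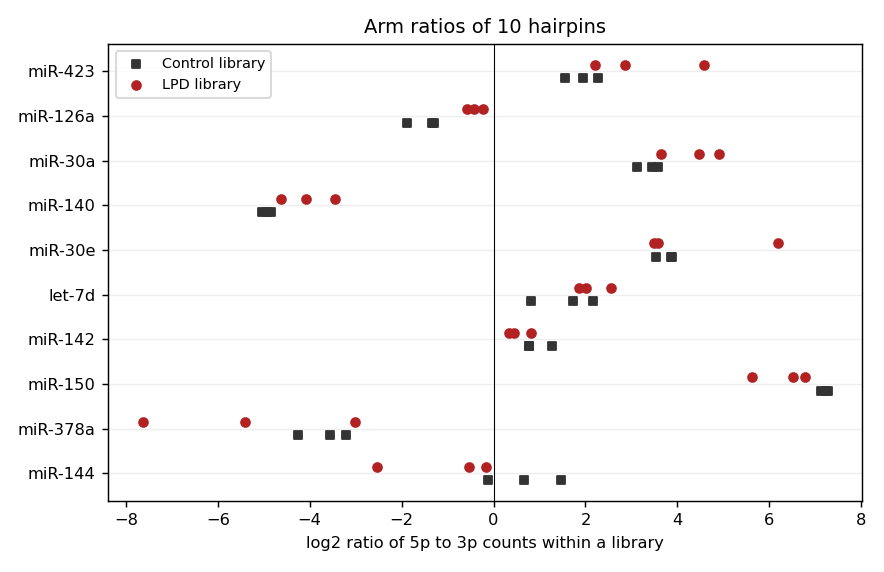
Log2 ratio of 5p to 3p counts in each of the 6 libraries for 10 hairpins, Control as squares and LPD as circles, with a line at equal arms. The miR-126a circles lie to the right of its squares, nearer to 0, and the miR-144 circles to the left of its squares.

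The 279 miRNAs with 0 counts in all LPD libraries were scarce in Control. Their median Control mean was 3.15 CPM, and 3 counts, the limit that a count of 0 allows, stand for 10.0, 15.5 and 19.3 CPM in the LPD libraries. Of the 233 miRNAs with a Control mean under 10 CPM, 213 were 0 throughout LPD, as were 62 of 130 at 10 to 100 CPM, 4 of 85 at 100 to 1000 CPM and none of the 51 at 1000 to 10000 CPM or the 23 above. At the depth of every LPD library, 41 of the 279 would have at least 3 counts if they kept their Control mean, and 7 at least 10. These figures and the limit of 3 counts take each count as a separate molecule. Counts per molecule were estimated at 36.7, 49.1 and 12.3 in LPD 1, LPD 2 and LPD 3, so fewer molecules than counts would be expected. That estimate already takes the zeros as missed in sampling, so it cannot tell such misses from true absence.

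**Figure D5:**
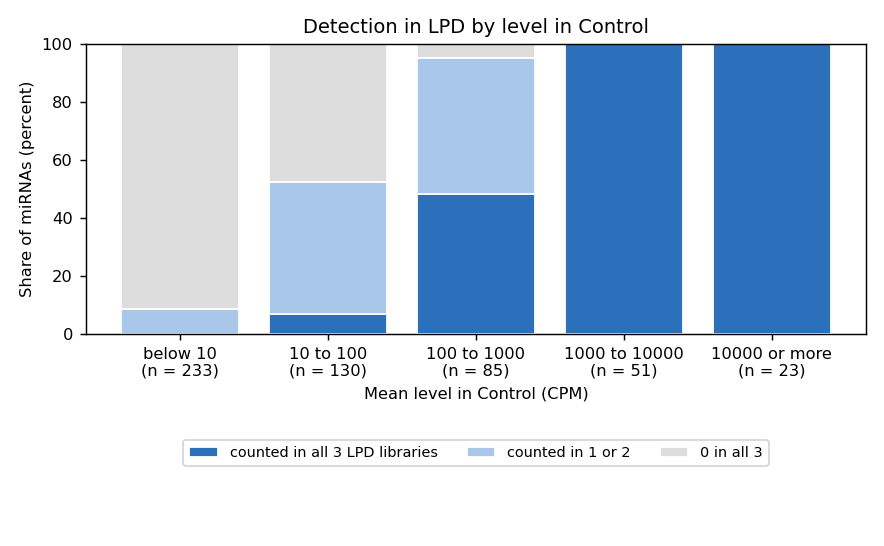
Share of miRNAs counted in all 3, in 1 or 2, or in none of the LPD libraries, by mean Control level in 5 classes with the number of miRNAs under each. Above 1000 CPM all miRNAs were counted in all 3 LPD libraries and below 10 CPM none was.

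The most abundant of these in Control was miR-802-5p, of liver, at 226 CPM ± 278 (SD, n = 3), with 411 of its counts in Control 2 and 52 and 171 in Control 1 and Control 3. miR-322-3p stood at 188 ± 111 CPM and miR-324-5p at 172 ± 62.7 CPM, with the other arm miR-324-3p at 67.0 ± 7.48 CPM. miR-22-5p stood at 57.5 ± 25.3 CPM. miR-324-5p and miR-324-3p would be expected at 26.7 and 10.4 counts in LPD 3, the shallowest library, if the Control level held. If the estimate of 12.3 counts per molecule in LPD 3 holds, such counts stand for few molecules. Of 27 tested, 27 were called lower. Each could pass the filter on low counts only through its Control counts, so no other direction was possible. Those calls numbered 27 with limma voom and in the fit of all 3 groups, 24 with RLE factors and 22 with library totals. They numbered 7 with DESeq2 and 0 with no filter. When counts were divided by the estimated number of counts per molecule, 0 of 5 passed. Without LPD 1, LPD 2 and LPD 3 they numbered 24, 0 and 27. Without Control 1, Control 2 and Control 3, 1 of 11, 16 of 21 and 0 of 9 passed.

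The imprinted Dlk1-Dio3 cluster, a run of miRNA genes expressed in brain, muscle and embryonic tissue, made up part of this group. Of its 29 miRNAs in the matrix 25 were 0 in all LPD libraries, 3 were partly 0 and 1 was 0 in all 6. This stands beside 279 of all 567 miRNAs, and 213 of the 233 with a Control mean under 10 CPM. Many members of the cluster were under 10 CPM in Control, so the count is not particular to the cluster. miR-127-3p stood at 115 ± 74.6 CPM in Control, miR-379-5p at 83.8 ± 68.9 CPM and miR-134-5p at 75.0 ± 32 CPM. Control 2 was again the lowest Control library, with 30, 20 and 29 counts of these 3. miR-382-5p was counted 375, 58 and 270 times in Control and 64, 0 and 13 times in LPD, so the cluster was not wholly absent from LPD serum. Its summed share was 0.14%, 0.02% and 0.08% in Control and 0.02%, 0% and 0.02% in LPD.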

How the data were processed

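The authors deposited raw counts (whole numbers) of 567 mature miRNAs for each of 9 libraries, and 0 values of the series matrix differed from the single tables. Per the labels' protocols, serum RNA was isolated with a miRNeasy kit and libraries were made with a QIAseq kit, which adds molecular identifiers. Not given in the sources used here are the aligner, the counting tool, the annotation and whether these identifiers served to collapse duplicates. Per the submitters' processing notes the reads were placed on mRatBN7.2. Sequences and positions come from RefSeq on GRCr8.

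Groups come from the sample titles. No label says whether the 3 samples of a group came from 3 animals, so p-values cover only the spread among these samples, which may be technical. miRNAs were filtered with filterByExpr (at least 10 counts, at least 15 in total), leaving 247 of 567, and the 6 libraries were fitted with edgeR 4.0.16 (R 4.3.3), TMM scaling and the robust quasi-likelihood test, at an adjusted p of 0.05. The steps were tested on simulated data that did not model many counts per molecule, so the simulation does not cover that feature of the LPD libraries. Arm ratios were tested with limma 3.58.1 on log2 ratios with a prior of 0.5 counts, and the lysis index by exact permutation with the same prior. DESeq2 1.42.0, limma voom, other scalings, filters and models and the omission of each library were alternatives. Counts per molecule were estimated from the number of undetected miRNAs, at 12.3 to 49.1 in LPD, so intervals and floors cover counting error only. The estimate takes undetected miRNAs as missed in sampling.

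The members and the 21 lists were chosen with earlier results of these data known, and lists carry counts and medians only. Named miRNAs are a panel of 21, up to 12 of the largest called changes in each direction with a mean of at least 500 CPM, the 8 most abundant at 0 in LPD, up to 4 members of each list, and their seed relatives and other arms. Others (miR-6216, miR-503-3p, miR-200b-3p, miR-375-3p, miR-425-5p, miR-499-5p, miR-99a-5p) were named after their values were seen. Entries without an arm are printed as deposited.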

Additional observations from a re-analysis of the deposited data

How the results depend on the processing

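Totals of calls are over all miRNAs tested, and counts of higher and lower calls only over the miRNAs with counts in all 6 libraries. Against a total of 52, with 8 higher and 16 lower, the fit of all 3 groups gave a total of 109, with 27 lower, limma voom with quality weights 5 higher and 5 lower, library totals 10 lower, DESeq2 14 higher, and no filter on low counts a total of 7, with 1 higher and 6 lower. Restricting the test to miRNAs with counts in all 6 libraries gave 26 calls, to those with at least 50 counts in each 22, and dividing by the estimated counts per molecule 25. Leaving out each library gave a total of 0 to 113, with 0 to 15 higher and 0 to 16 lower, and a total of 0 without LPD 2 (edgeR, 107 at an unadjusted p under 0.05) and 6 without Control 3. An alternative chosen after seeing the data kept the same 247 miRNAs while leaving out each library. It gave 0 calls without LPD 2 and 10 without Control 3, and among miRNAs with counts in all 6 libraries 0 to 13 higher and 0 to 16 lower (2 higher and 4 lower without Control 3, 3 higher and 9 lower without LPD 1, 10 lower without Control 1). With the replicate number as a block the total was 28, with 8 higher and 17 lower. Same-numbered libraries deviated together with correlations of -0.04, 0.09 and 0.09, and in 1 pair both libraries correlated best with their own number. Over 3 pairs this cannot settle whether the numbers pair the samples. The fit of all 3 groups took every library as independent. Whether the 10-day and the late libraries share animals is not stated. None of the 24 called miRNAs changed sign. Medians of lists without a clear direction did change sign: muscle ran from -1.78 to 0.94, the miR-17 clusters from -0.28 to 0.69, leukocytes from -0.04 to 0.39, platelets from -0.30 to 0.19, the miR-23/27/24 clusters from -0.30 to 0.15 and inflammation from -0.31 to 0.07. Of the values of single miRNAs under the other alternatives 892 stayed on their side of the threshold, 132 lost it and 35 gained it. For arm ratios 1 hairpin was called with at least 50 counts of each arm (3 hairpins tested) and 1 without LPD 1; leaving out each library gave 0 to 1. The lysis index differed by 0.27 to 1.16 with libraries left out, and its exact p was 0.25 with pairs by number. In LPD 3 counts stand for 10.0 to 19.3 CPM, against 1.64 to 3.98 CPM in Control. Of the 85 miRNAs at 100 to 1000 CPM in Control 41 were counted in all 3 LPD libraries, so depth limits what can be said below 1000 CPM.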
